A study of Homo sapiens with 10 samples.

Results

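Autophagy delivers parts of the cytoplasm to the lysosome, and the genes of its machinery were followed here as a module of 38 members in QGP-1 cells, a human pancreatic neuroendocrine tumor line. Members were chosen by gene name and fall into 7 steps: the ULK initiation complex (5 genes), the class III PI3-kinase complexes (4), the PI3P effectors with the lipid transfer proteins (6), the ATG8 and ATG12 conjugation systems with the ATG4 proteases (10), the ATG8 family (5), the soluble cargo receptors (5) and the fusion and maturation factors (3). They are 38 of the 35606 gene IDs listed in each deposited table, and 38 of 38 had a mean of at least 1 CPM in both tables and were tested.

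The RNA-seq comprised 10 samples in 5 groups of 2. In the first experiment, QGP-1 cells carried the CRISPR interference (CRISPRi) construct, a catalytically dead Cas9 fused to the KRAB repressor, with either the control guide sgNC or the guide sgPIKFYVE-1 (the labels give no drug and list sgNC as wild type). In the second, QGP-1 cells labelled wild type were given DMSO, 1 µM apilimod, an inhibitor of the lipid kinase PIKfyve, or 100 nM Torin-1, an inhibitor of the mTOR kinase, with 24 h on the labels of both drugs. The comparisons ask how the autophagy transcripts respond to less PIKfyve, to PIKfyve inhibition and to mTOR inhibition. The knockdown rests on 1 guide in a pool of selected cells, and the labels do not say whether replicates came from separate cultures, so p-values measure the spread between these samples, which may be technical. The 2 experiments were normalized separately and each comparison stayed within its own table, whereas apilimod and Torin-1 were both set against the same 2 DMSO samples.

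The ULK kinase complex, which mTORC1 restrains while nutrients are plentiful, starts autophagosome formation, and the PI3-kinase complexes then make the lipid PI3P on the growing membrane. PI3P effectors bring in lipid transfer and the conjugation enzymes that attach ATG8 proteins (the LC3 and GABARAP families) to the membrane, cargo receptors link ubiquitinated cargo to ATG8, and the closed vesicle fuses with the lysosome. PIKfyve phosphorylates PI3P on endosomes and lysosomes, and its loss is known for enlarged vacuoles and for slowed turnover of autophagic cargo.

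PIKFYVE transcript itself was at 100.7 and 97.5 CPM with sgNC and at 10.9 and 12.5 CPM with sgPIKFYVE-1, 11.8% of control (log2 fold change −2.98, SE 0.098, limma adjusted p = 1.22e-14). The step between the lowest values put the depth of the libraries at 9.30 to 13.6 M reads, with 3 reads worth 0.227 to 0.329 CPM, below every member's level. The neuroendocrine markers (10 genes) were present in every sample, with a sum of 8108 to 8434 CPM with sgNC, 7062 to 7298 with sgPIKFYVE-1, 8457 to 8465 with DMSO, 7297 to 7415 with apilimod and 10870 to 11209 with Torin-1. Of the other cell types, 2 of 6 fibroblast markers (COL3A1 and LUM), 1 of 5 leukocyte markers (CD3E) and 0 of 3 endothelial markers were at 0 in all samples. The endothelial list summed to at most 3.93 CPM and the fibroblast list to at most 10.4 CPM, both with sgNC. COL1A1 was at 9.46 and 9.60 CPM with sgNC and 7.23 and 5.61 with sgPIKFYVE-1 (−0.51, limma adjusted p = 0.0297). With 1 library left out its log2 fold change ran from −0.67 to −0.36. The leukocyte list summed to 7.30 to 7.72 CPM with sgNC and 17.2 to 19.2 CPM with sgPIKFYVE-1, most of it from LYZ (6.32 and 4.81 against 15.5 and 18.4 CPM). The neuroendocrine sums do not speak for each marker either, since SYP and ENO2 were lower with Torin-1 (log2 fold change −0.25 and −0.26, limma adjusted p = 0.00356 and 0.00212) while SCG2 was higher (0.45). The part of these shifts in the results was not tested.

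Torin-1 raised the largest number of members. With Torin-1, 17 of 38 members were higher than DMSO (44.7%) and 2 lower (5.26%), where 16.6% of the 13520 genes tested were higher and 21.8% lower. With apilimod, 8 were higher (21.1%) and 2 lower (5.26%), against 5.75% and 2.79% of all genes. In the knockdown, 8 were higher (21.1%) and 11 lower (28.9%), against 21.6% and 20.9% of 13591 genes, so the knockdown's counts were close to the background and are not read as a result about the module. The median log2 fold change over the 38 members was 0.01 in the knockdown, 0.03 with apilimod and 0.18 with Torin-1, beside medians over all genes of −0.0042, −0.0057 and −0.012. Calls are at an adjusted p under 0.05 from limma on log2(CPM + 1), adjusted across every tested gene by Benjamini-Hochberg.

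With either drug the counts of lower members were small, and counts of lower and of higher members moved with single libraries. With apilimod the 2 lower members (ULK1 and NBR1) became 1 without DMSO replicate 1, apilimod replicate 1 or apilimod replicate 2, and 0 without DMSO replicate 2, and the 8 higher members became 5 without DMSO replicate 2 or apilimod replicate 1. With Torin-1 the 2 lower members (ATG4A and ATG5) became 1 without DMSO replicate 2 (ATG4A). Without DMSO replicate 1 or Torin-1 replicate 1 neither passed, and ATG101 (adjusted p = 0.0248) or ATG16L1 (0.0291) passed in their place. Without Torin-1 replicate 2 there were 3, with ATG4C added (0.0469). Quantile normalization moved the split of all genes with apilimod from 778 higher and 377 lower to 658 and 536, while the members stayed at 8 and 2. Of the calls, 14 of the 17 higher with Torin-1, 5 of the 8 higher with apilimod, 6 of the 8 higher in the knockdown, 5 of the 11 lower in the knockdown, and 0 of the 2 lower with either drug, passed in every alternative fit that was run.

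**Figure D1:**
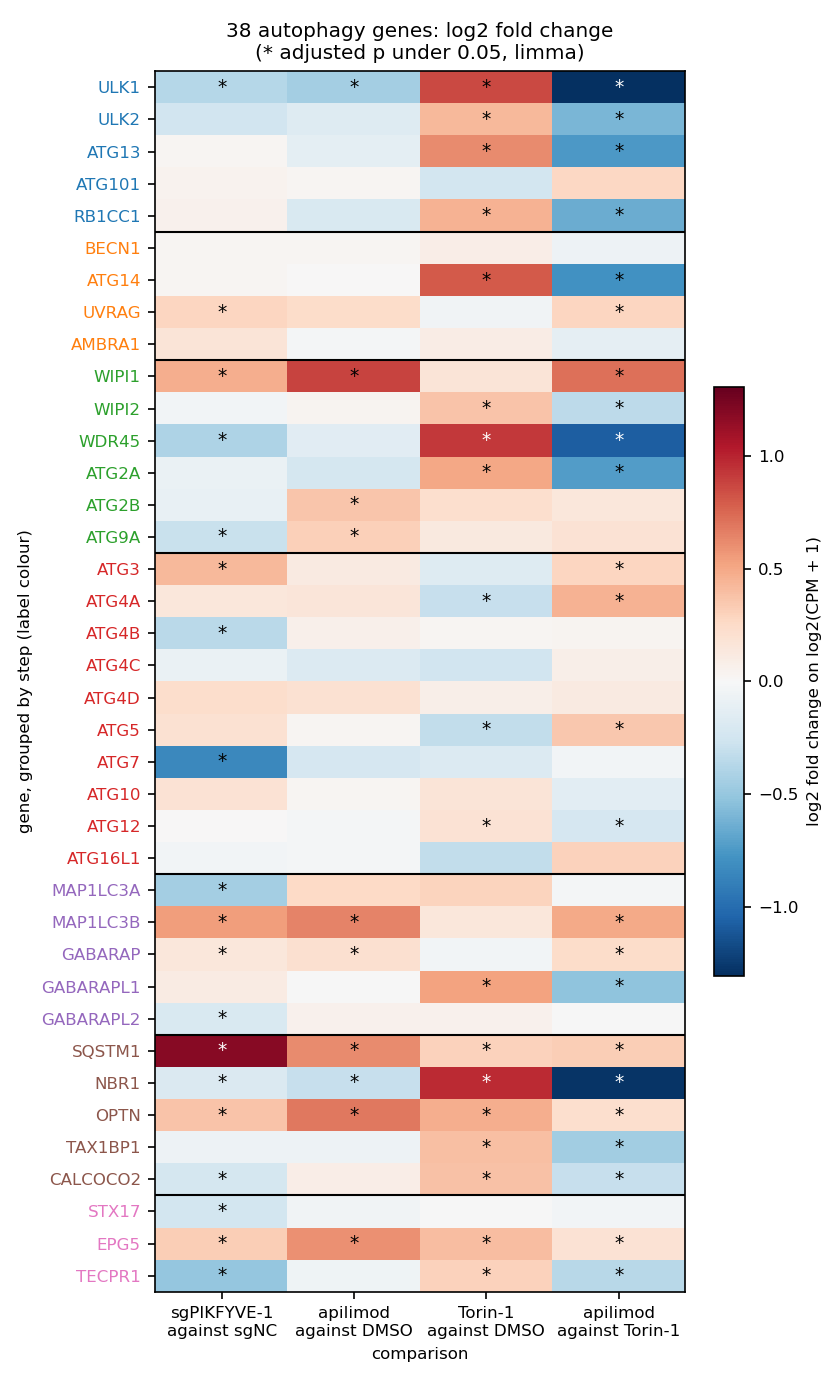
Log2 fold change on log2(CPM + 1) of the 38 members (rows, grouped by step from initiation at the top to fusion at the bottom) in 4 comparisons (columns), with red for higher, blue for lower and a star where the limma adjusted p was under 0.05. All 5 cargo receptors are starred with Torin-1, and the column for the knockdown holds 8 stars on red and 11 on blue.

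RefSeq promoter windows (GRCh38.p14, 250 bases before to 50 after the start) were held for 32 of the 38 members, in 41 windows. They were searched on both strands for 4 motifs. The E-box TCACGTGA of the CLEAR type was in 1 of 41 windows, that of ATG3, and in 0.98% of 35116 windows of all genes. The forkhead letters GTAAACA were in 2 (CALCOCO2 and WDR45; 3.42% of all windows), the antioxidant response letters TGACNNNGC in 4 (ATG101, MAP1LC3B, CALCOCO2 and TECPR1; 13.3%), and TGATGNAA, the composite of ATF4 and C/EBP, in 1 (WDR45, overlapping its GTAAACA; 3.62%). The looser E-box core CACGTG, chosen after these, was in 2 (ATG3 and ATG14; 7.26%). A match describes letters only. The stretches of 30 bases around a match are shown for 3 members that passed in some comparison below, with the matched letters in capitals. They are MAP1LC3B at chr16:87392280-87392309 on the plus strand, TECPR1 at chr7:98252345-98252374 on the minus strand and ATG14 at chr14:55411834-55411863 on the minus strand. In GENCODE 29 the MAP1LC3B stretch overlaps an exon of MAP1LC3B and the ATG14 stretch an exon of ATG14, and no gene covers the TECPR1 stretch.
MAP1LC3B: gcgagtcaccTGACCAGGCtgcgggctgag
TECPR1: tctggactccTGACCTGGCgcgaccccgga
ATG14: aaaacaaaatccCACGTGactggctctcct

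Of the ULK complex, 4 of 5 members rose with Torin-1, 1 fell with apilimod and 1 fell in the knockdown. Of all genes, 16.6% were higher with Torin-1, 2.79% lower with apilimod and 20.9% lower in the knockdown. The knockdown count was thus near the share of all genes. The single lower member in either PIKfyve comparison, ULK1, is not read as a result about the step. ULK1 (chr12:131894651-131923167, GENCODE 29 on GRCh38, plus strand), the kinase that starts autophagosome formation, was at 32.8 and 32.7 CPM with DMSO, 24.7 and 23.0 with apilimod, and 63.8 and 56.8 with Torin-1. Both apilimod samples lay below and both Torin-1 samples above the DMSO pair. The log2 fold changes were −0.44 (SE 0.094, limma adjusted p = 0.00835) and 0.86 (SE 0.094, adjusted p = 9.52e-06). With sgNC, ULK1 was at 45.9 and 45.7 CPM, and with sgPIKFYVE-1 at 35.1 in both samples (−0.38, SE 0.087, limma adjusted p = 0.0017). ULK1 was thus lower in both PIKfyve comparisons and higher with Torin-1, although the apilimod call was lost, at adjusted p between 0.060 and 0.062, without DMSO replicate 1, DMSO replicate 2 or apilimod replicate 2, at log2 fold changes of −0.39 to −0.44.

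ATG13 (chr11:46617527-46674818), the subunit that joins ULK1 to the rest of the complex, was at 64.8 and 61.1 CPM with DMSO and 96.0 and 98.0 with Torin-1. The Torin-1 samples lay above both controls, with a log2 fold change of 0.62 (SE 0.071, limma adjusted p = 1.51e-05). With apilimod ATG13 was at 58.3 and 56.5 CPM (−0.13, limma adjusted p = 0.32), and in the knockdown the groups overlapped, at 77.6 and 82.1 against 82.9 and 79.7 CPM. ULK2, a second kinase of this family, and RB1CC1, the scaffold also called FIP200, followed with log2 fold changes of 0.42 and 0.46 under Torin-1 (limma adjusted p = 0.00559 and 0.00713), the latter lost without Torin-1 replicate 2 (adjusted p = 0.0569). ATG101, which stabilises ATG13, did not pass in any of the 3 comparisons.

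Of the PI3-kinase complexes, ATG14 rose with Torin-1 and UVRAG in the knockdown, and BECN1 and AMBRA1 passed in none. ATG14 (chr14:55366392-55411858), which directs the lipid kinase to autophagosome formation, was at 14.4 and 14.3 CPM with DMSO and 25.7 and 25.4 with Torin-1. This is 1.78 times the control mean, with a log2 fold change of 0.79 (SE 0.12, limma adjusted p = 0.000174). The apilimod samples, at 13.3 and 15.5 CPM, lay around the same controls (limma adjusted p = 0.991), and the knockdown groups overlapped, at 13.3 and 10.7 against 13.1 and 11.4 CPM. The E-box core printed above for ATG14 was also in the window of ATG3, which did not pass with Torin-1 (−0.17, limma adjusted p = 0.157). The part of these letters was not tested. UVRAG, the subunit of the complex that acts in endosome and autophagosome maturation, had a log2 fold change of 0.28 in the knockdown (limma adjusted p = 0.0269), which was lost without sgNC replicate 1 or sgPIKFYVE-1 replicate 2 (adjusted p = 0.149 and 0.275). BECN1, the core subunit, was between 77.8 and 89.9 CPM in the knockdown table and between 85.7 and 92.5 CPM in the drug table.

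Of the 6 PI3P effectors, 3 rose with apilimod and 3 with Torin-1, and in the knockdown 1 rose and 2 fell. Of all genes, 5.75% were higher with apilimod and 16.6% with Torin-1, and in the knockdown 21.6% were higher and 20.9% lower. The knockdown counts over 6 genes cannot be told from these shares and are not read as a result about the step. With apilimod, the calls of ATG2B and ATG9A were lost in some fits with 1 library left out. WIPI1 (chr17:68420948-68457513), which binds PI3P at the growing membrane, was at 39.2 and 44.6 CPM with DMSO and 79.1 and 76.8 with apilimod. That is 1.86 times the control mean, with a log2 fold change of 0.88 (SE 0.084, limma adjusted p = 6.83e-06). In the knockdown it was at 90.4 and 92.8 CPM with sgNC and 127.8 and 128.0 with sgPIKFYVE-1 (0.48, SE 0.060, limma adjusted p = 2.88e-06). With Torin-1, at 47.9 and 46.1 CPM, it lay just above the DMSO samples without passing (0.17, limma adjusted p = 0.138). ARSG, on the opposite strand, shares 24.3% of the exonic bases of WIPI1, and the strand used in counting is not stated, so reads there cannot be told apart; ARSG itself was at 5.41 to 11.8 CPM in all samples.

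WDR45 (chrX:49071470-49101170), a relative of the WIPI proteins, rose with Torin-1 and fell in the knockdown. It was at 31.8 and 34.6 CPM with DMSO and 67.1 and 60.5 with Torin-1, 1.92 times the control mean (log2 fold change 0.92, SE 0.093, limma adjusted p = 4.46e-06). With sgPIKFYVE-1 it was at 39.6 and 42.9 CPM, below the 52.2 and 57.8 CPM of sgNC (−0.41, SE 0.086, limma adjusted p = 0.000816), and with apilimod, at 30.9 and 28.9 CPM, it lay below both DMSO samples without passing (−0.15, limma adjusted p = 0.409). PRAF2, on the same strand, shares 13.9% of the exonic bases of WDR45 and was at 22.0 to 40.7 CPM. WIPI2, which recruits ATG16L1 to PI3P, and ATG2A, which moves lipid to the growing membrane, also rose with Torin-1, by 0.37 and 0.50 (limma adjusted p = 0.000853 and 0.00251), and in neither of the other comparisons. ATG9A, the lipid scramblase carried by vesicles, was named after its values were seen. It was at 96.8 and 96.0 CPM with sgNC and 81.8 and 75.5 with sgPIKFYVE-1, but at 66.4 and 60.6 CPM with DMSO and 83.6 and 74.9 with apilimod. ATG9A thus passed as lower in the knockdown (−0.29, limma adjusted p = 0.00159) and as higher with apilimod (0.31, limma adjusted p = 0.0237); the difference between the 2 tables was not tested, the apilimod call was lost without DMSO replicate 2 or apilimod replicate 1 (adjusted p = 0.243 and 0.205), and 38.8% of the exonic bases of ATG9A are shared with AC068946.2, a protein-coding gene annotated on its strand.

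Among the 10 conjugation enzymes and ATG4 proteases, ATG7 and ATG3 moved in opposite directions in the knockdown. With apilimod 0 of 10 passed in either direction by limma (1, ATG4D, at an unadjusted p under 0.05), with Torin-1 1 rose and 2 fell, and in the knockdown 1 rose and 2 fell. Beside the shares of all genes given above, these counts over 10 genes are not read as a result about the step. The 10 log2 fold changes with apilimod ran from −0.21 to 0.19. ATG7 (chr3:11272309-11557665), the E1-like enzyme of both conjugation systems, was at 40.7 and 41.5 CPM with sgNC and 21.8 and 23.3 with sgPIKFYVE-1. It fell to 0.55 of the control mean, the lowest log2 fold change of any member in the knockdown (−0.84, SE 0.099, limma adjusted p = 1.36e-06). In the drug table ATG7 was at 22.8 and 26.1 CPM with DMSO, 21.7 and 20.1 with apilimod and 22.8 and 20.3 with Torin-1, and passed with neither drug (limma adjusted p = 0.321 and 0.258). VGLL4, on the opposite strand, shares 18.1% of the exonic bases of ATG7 and did not pass in the knockdown (log2 fold change −0.07, limma adjusted p = 0.547).

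ATG3, the E2-like enzyme that hands ATG8 to its lipid, was at 40.8 and 40.3 CPM with sgNC and 53.3 and 56.5 with sgPIKFYVE-1 (0.43, limma adjusted p = 0.000338). It therefore rose in the same samples in which ATG7, the enzyme acting just before it, fell. ATG4B, a protease that primes and releases ATG8 proteins, fell in the knockdown (−0.35, limma adjusted p = 0.00137). With Torin-1, ATG5 and ATG4A fell by 0.32 and 0.30 on the log2 scale (limma adjusted p = 0.0145 and 0.0432) and ATG12 rose by 0.19 (adjusted p = 0.0453). Each of these 3 was lost without at least 1 library: ATG5 without DMSO replicate 1, DMSO replicate 2 or Torin-1 replicate 1 (adjusted p between 0.0548 and 0.0964), ATG4A without DMSO replicate 1 or Torin-1 replicate 1 (0.290 and 0.316), and ATG12 without DMSO replicate 1, DMSO replicate 2 or Torin-1 replicate 2 (0.120 to 0.218). ATG4C, ATG4D, ATG10 and ATG16L1 passed in none of the 3 comparisons.

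In the ATG8 family, MAP1LC3B and GABARAP were higher in both PIKfyve comparisons and GABARAPL1 was higher with Torin-1. MAP1LC3B (chr16:87383995-87404779), the LC3 protein most used as a marker of autophagosomes, was at 102.9 and 110.4 CPM with sgNC and 159.1 and 153.6 with sgPIKFYVE-1. With apilimod it was at 120.4 and 122.1 CPM, against 78.8 and 75.8 with DMSO. Both treated pairs lay above their controls, 1.47 and 1.57 times the control mean, with log2 fold changes of 0.55 (SE 0.059, limma adjusted p = 4.35e-07) and 0.64 (SE 0.071, adjusted p = 3.32e-05). The Torin-1 samples, at 80.7 and 90.9 CPM, lay above DMSO by less (0.15, limma adjusted p = 0.122). This result depended on the fit. After quantile normalization MAP1LC3B passed as higher with Torin-1 (0.21, limma adjusted p = 0.0323), and without Torin-1 replicate 1 the log2 fold change was 0.23. The window printed for MAP1LC3B holds the antioxidant response letters. MAP1LC3B2, a near copy whose reads could be confused with it, was at most at 0.84 CPM.

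GABARAPL1 (chr12:10212458-10223130), of the GABARAP branch, was at 61.1 and 63.9 CPM with DMSO, 66.0 and 59.2 with apilimod and 86.3 and 94.0 with Torin-1. Only the Torin-1 pair was separate from the controls, with a log2 fold change of 0.52 (SE 0.079, limma adjusted p = 0.000166), and its copy GABARAPL3 was listed at 0 in every sample. In the knockdown the GABARAPL1 groups overlapped (0.11, limma adjusted p = 0.211). GABARAP passed as higher in the knockdown and with apilimod, by 0.14 and 0.21 (limma adjusted p = 0.0261 and 0.0135), and each of these small differences was lost when any 1 of several libraries was left out: sgNC replicate 1, sgPIKFYVE-1 replicate 1 or 2 in the knockdown (adjusted p between 0.0687 and 0.367), and either DMSO or either apilimod replicate in the drug table (0.0514 to 0.162, at log2 fold changes of 0.19 to 0.22). MAP1LC3A and GABARAPL2 were lower in the knockdown (−0.44 and −0.20, limma adjusted p = 0.00929 and 0.0186); the first call was lost without sgNC replicate 2 (0.101) and the second without sgNC replicate 1 or sgPIKFYVE-1 replicate 1 (0.276 and 0.0849).

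All 5 cargo receptors rose with Torin-1, where 16.6% of all genes did, and 2 of them, SQSTM1 and OPTN, rose in all 3 comparisons. SQSTM1 (chr5:179806398-179838078), which encodes p62, the receptor that carries ubiquitinated proteins into autophagosomes, was at 271.9 and 263.2 CPM with sgNC and 623.6 and 598.3 with sgPIKFYVE-1. In the drug table it was at 241.3 and 235.3 CPM with DMSO, 376.0 and 354.8 with apilimod, and 295.1 and 290.1 with Torin-1. Every treated sample lay above its controls, at 2.28, 1.53 and 1.23 times the control mean. The log2 fold changes were 1.19 in the knockdown (SE 0.045, limma adjusted p = 1.2e-13), 0.61 with apilimod (SE 0.049, adjusted p = 1.2e-06) and 0.30 with Torin-1 (SE 0.049, adjusted p = 0.000348). MRNIP, on the opposite strand, shares 20.7% of the exonic bases of SQSTM1. It ran against SQSTM1 in the knockdown, at 14.3 and 16.0 CPM with sgNC and 8.35 and 8.88 with sgPIKFYVE-1. With Torin-1 MRNIP rose as SQSTM1 did, from 13.0 and 12.8 CPM with DMSO to 17.3 and 19.1 (0.46, limma adjusted p = 0.0135). With apilimod MRNIP did not pass (−0.09, limma adjusted p = 0.788).

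NBR1 (chr17:43170481-43211689), a receptor of similar build to p62 that also clears peroxisomes, was highest with Torin-1 and lowest with apilimod in the drug table. It was at 142.0 and 153.2 CPM with DMSO, 113.3 and 125.5 with apilimod and 291.7 and 287.5 with Torin-1. The Torin-1 pair was 1.96 times the control mean, the highest log2 fold change of any member with that drug (0.97, SE 0.063, limma adjusted p = 6.24e-08), while with apilimod NBR1 was lower (−0.30, SE 0.063, limma adjusted p = 0.00661). In the knockdown it was at 235.0 and 234.0 CPM with sgNC and 209.3 and 200.9 with sgPIKFYVE-1 (−0.19, SE 0.050, limma adjusted p = 0.00419). The apilimod call was lost without DMSO replicate 2 or apilimod replicate 1 (adjusted p = 0.118 and 0.0803). Within the knockdown samples, then, transcripts of the related receptors SQSTM1 and NBR1 moved in opposite directions.

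OPTN (chr10:13099449-13138308), the receptor optineurin, which acts in clearing damaged mitochondria and bacteria, was at 42.7 and 40.9 CPM with DMSO, 66.8 and 68.7 with apilimod and 58.3 in both Torin-1 samples. With sgNC it was at 68.4 and 70.1 CPM and with sgPIKFYVE-1 at 88.4 and 91.0. All treated pairs lay above their controls, with log2 fold changes of 0.68, 0.47 and 0.37 for apilimod, Torin-1 and the knockdown (SE 0.076, 0.076 and 0.067; limma adjusted p = 3.28e-05, 0.000265 and 0.00019). TAX1BP1 and CALCOCO2 (NDP52), related receptors with a role in clearing bacteria, rose with Torin-1 by 0.39 and 0.38 (limma adjusted p = 0.000119 and 0.000737). CALCOCO2 was lower in the knockdown (−0.23, limma adjusted p = 0.00837), which was lost without sgNC replicate 1 (0.113).

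Of the fusion factors, EPG5 (chr18:45847609-45967339), a tether that acts when autophagosomes meet late endosomes and lysosomes, rose in all 3 comparisons. It was at 74.9 and 75.1 CPM with DMSO, 117.3 and 110.1 with apilimod and 103.2 and 95.7 with Torin-1. With sgNC it was at 89.4 and 83.5 CPM and with sgPIKFYVE-1 at 110.8 and 105.5. No treated sample overlapped its controls, and the log2 fold changes were 0.59, 0.40 and 0.32 for apilimod, Torin-1 and the knockdown (SE 0.068, 0.068 and 0.065; limma adjusted p = 4.41e-05, 0.000393 and 0.000544). TECPR1 (chr7:98214624-98252251), another tether of the autophagosome and lysosome, was at 66.5 and 62.7 CPM with sgNC and 48.7 and 42.3 with sgPIKFYVE-1 (−0.50, SE 0.084, limma adjusted p = 9.13e-05). Its window, printed above, holds the same pattern, TGACNNNGC, as that of MAP1LC3B with other letters at the N positions. In the knockdown MAP1LC3B was higher. Of the other members with the pattern, CALCOCO2 was lower there and ATG101 did not pass. The part of these letters was not tested. With Torin-1 TECPR1 rose by 0.30 (limma adjusted p = 0.0205), a call lost without DMSO replicate 2 or Torin-1 replicate 1 (0.160 and 0.117). STX17, the autophagosomal SNARE, was lower in the knockdown (−0.23, limma adjusted p = 0.0284), lost without sgNC replicate 2 or sgPIKFYVE-1 replicate 1 (0.280 and 0.205).

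**Figure D2:**
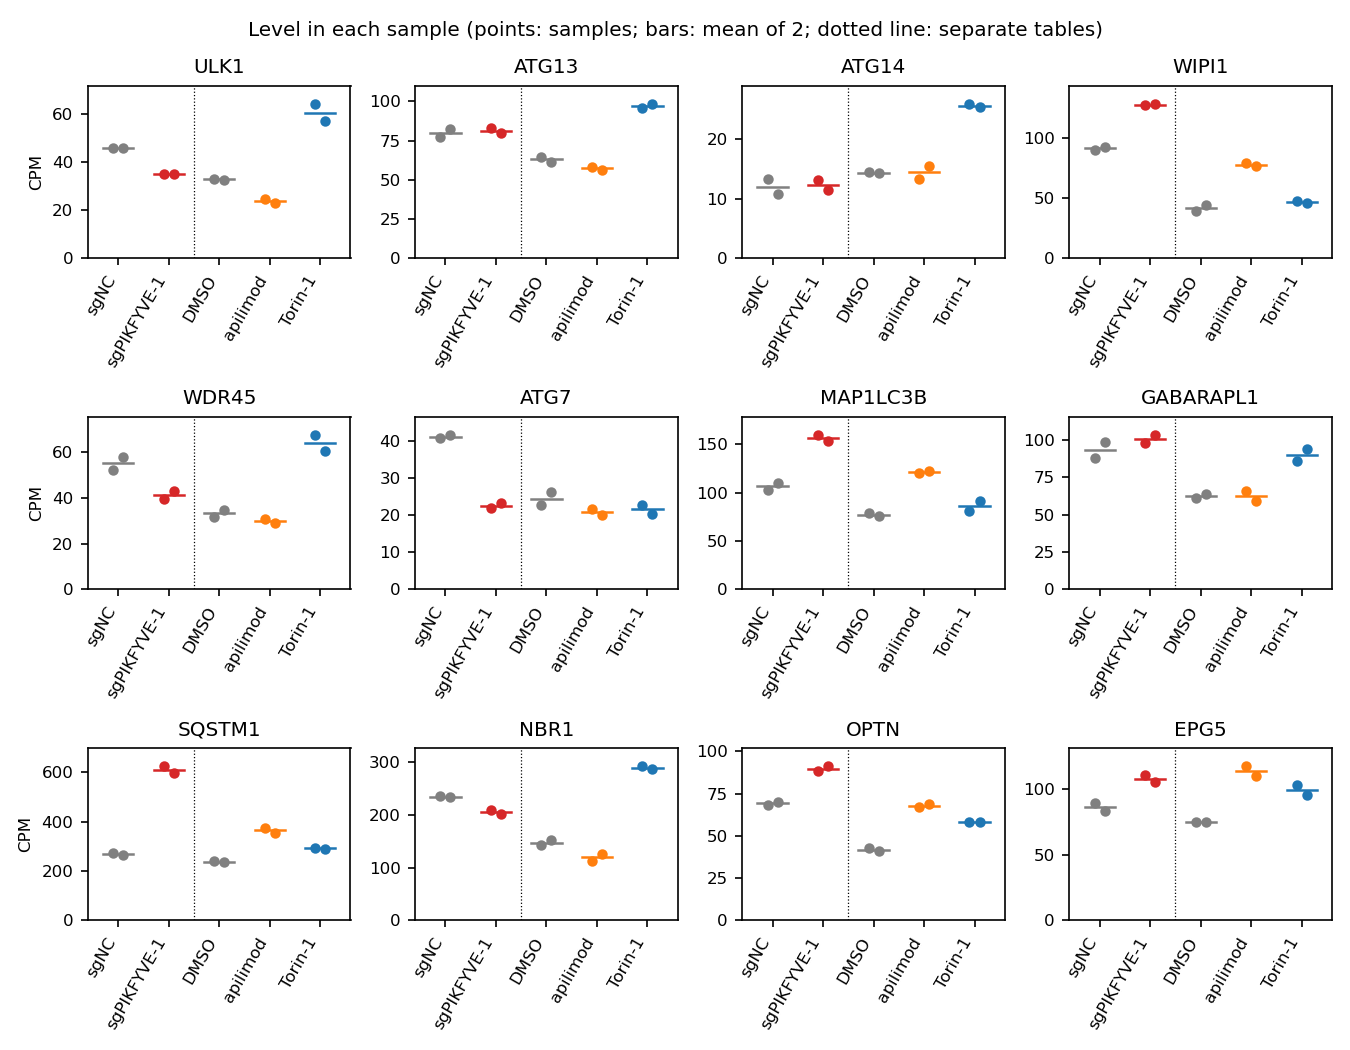
Levels in CPM (vertical axes, starting at 0) of 12 members in each of the 10 samples; points are samples, horizontal bars the mean of 2 samples, and the dotted line separates the 2 tables, which were normalized separately. SQSTM1 stands at 598.3 and 623.6 CPM with sgPIKFYVE-1, whereas ULK1, ATG13, ATG14, WDR45, GABARAPL1 and NBR1 have their highest pair in the drug table with Torin-1.

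The knockdown and apilimod act on the same kinase and have separate controls, so members were counted for passing in both. Higher in both were 6 of 38 members, WIPI1, MAP1LC3B, GABARAP, SQSTM1, OPTN and EPG5, where 3.71% of the 13235 genes tested in both tables passed that way. Lower in both were 2 members, ULK1 and NBR1, against 1.53% of genes. With the exception of GABARAP, the 6 higher members passed in every alternative fit in both tables. SQSTM1 changed more in the knockdown (1.19 against 0.61), and WIPI1, MAP1LC3B, GABARAP, OPTN and EPG5 had the larger value with apilimod, but the 2 tables were not tested against each other. Another 10 members passed in the knockdown only, 2 of them higher (UVRAG and ATG3) and 8 lower (WDR45, ATG4B, ATG7, MAP1LC3A, GABARAPL2, CALCOCO2, STX17 and TECPR1), ATG2B passed with apilimod only, ATG9A passed in opposite directions, and 18 passed in neither. Of all genes tested in both tables, 17.7% were higher and 19.0% lower in the knockdown only, against 5.26% and 21.1% of members, and 54.6% passed in neither, against 47.4% of members. The members lower in the knockdown only were thus near the share of all genes. ATG2B, a lipid transfer protein like ATG2A, had a log2 fold change of 0.36 with apilimod (limma adjusted p = 0.0245), which was lost when any 1 DMSO or apilimod sample was left out (adjusted p between 0.0916 and 0.163), with log2 fold changes that stayed between 0.34 and 0.38.

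**Figure D3:**
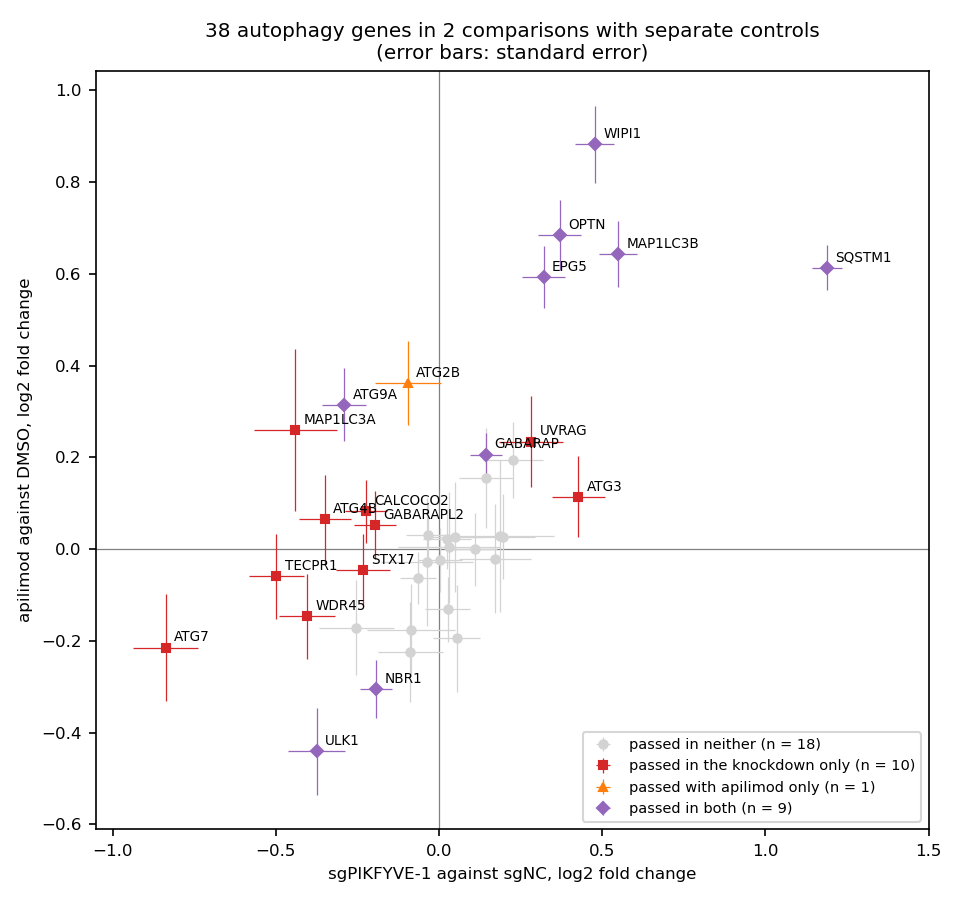
Log2 fold change of each of the 38 members in the knockdown (horizontal axis) and with apilimod (vertical axis), with standard errors; the marker shows in which comparison the member passed. The 6 members at the upper right passed as higher in both, ULK1 and NBR1 at the lower left as lower in both, and ATG7 lies at −0.84 on the horizontal axis.

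Apilimod and Torin-1 samples were also compared directly, which leaves the shared DMSO samples out of the difference. Of the members, 10 were higher with apilimod than with Torin-1 (26.3%) and 14 lower (36.8%), where 26.2% and 20.5% of all genes were. Quantile normalization changed this split to 6 higher and 14 lower. The count of higher members was near the share of all genes and is not read as a result about the module. Of the 14 lower members, 13 passed in every alternative fit. The ULK complex was lower in 4 of 5 members, by 1.30 for ULK1 (SE 0.094, limma adjusted p = 9.38e-08), 0.75 for ATG13, 0.65 for RB1CC1 and 0.59 for ULK2. NBR1 was lower by 1.27 (SE 0.063, limma adjusted p = 1.62e-09), WDR45 by 1.07 (SE 0.093, adjusted p = 5.65e-07) and ATG14 by 0.79 (SE 0.12, adjusted p = 0.000118).

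Of the members higher with apilimod, 6 of 10 passed in every alternative fit. WIPI1 was higher by 0.72 (SE 0.084, limma adjusted p = 1.01e-05), MAP1LC3B by 0.50 (SE 0.071, adjusted p = 6.6e-05), ATG4A by 0.45 (SE 0.11, adjusted p = 0.00352) and SQSTM1 by 0.32 (SE 0.049, adjusted p = 0.00012). Within the ATG8 family MAP1LC3B and GABARAP were higher with apilimod and GABARAPL1 higher with Torin-1, by 0.52 (SE 0.079, limma adjusted p = 0.000106), while MAP1LC3A and GABARAPL2 did not pass. Within the cargo receptors SQSTM1 and OPTN were higher with apilimod and NBR1, TAX1BP1 and CALCOCO2 higher with Torin-1. The direct differences of OPTN (0.21, limma adjusted p = 0.0326) and EPG5 (0.19, adjusted p = 0.0317) were lost on leaving out single libraries. For OPTN these were either Torin-1 or either apilimod replicate (adjusted p between 0.0707 and 0.128), and for EPG5 either DMSO replicate, Torin-1 replicate 2 or apilimod replicate 1 (0.0509 to 0.183). Both members were above DMSO with either drug.

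**Figure D4:**
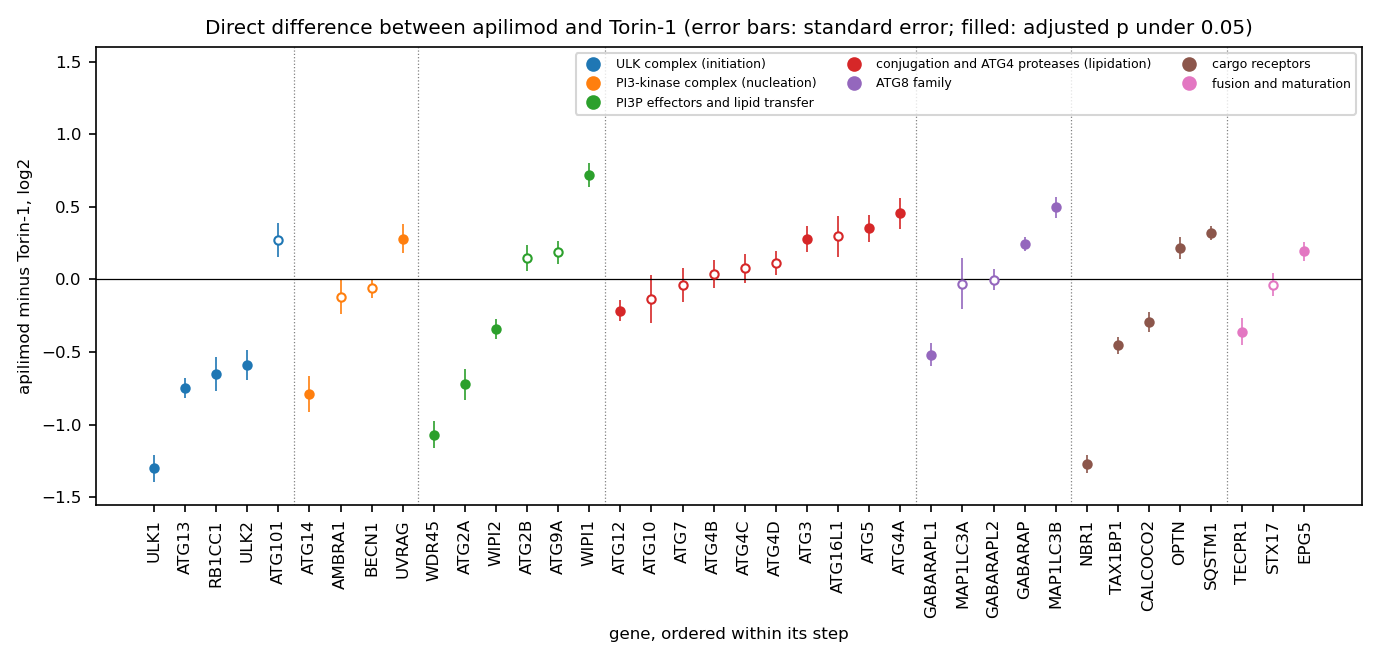
Difference between apilimod and Torin-1 in log2(CPM + 1) for each member (vertical axis, apilimod minus Torin-1), ordered within its step, with standard errors and filled points where the limma adjusted p was under 0.05. ULK1 at −1.30 and NBR1 at −1.27 are lowest and WIPI1 at 0.72 is highest.

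A further 32 autophagy genes outside the module, covering other core factors, selective receptors and fusion factors, were counted for comparison, 31 of them tested in the drug table. They gave 7 higher and 8 lower in the knockdown, 6 higher and 0 lower by limma with apilimod (2 lower at an unadjusted p under 0.05), and 9 higher and 8 lower with Torin-1. Their knockdown shares, 21.9% higher and 25.0% lower, were close to those of all genes (21.6% and 20.9%), as were the 8 lower of 31 with Torin-1 (21.8% of all genes), and these counts are not read as a result about the set. LAMP2, a lysosomal membrane protein needed for fusion, was at 112.6 and 109.8 CPM with sgNC and 194.3 and 205.9 with sgPIKFYVE-1 (0.84, SE 0.056, limma adjusted p = 5.52e-10), and it rose with apilimod by 0.34 (adjusted p = 0.00295). RAB7A, the late endosomal GTPase, rose in the knockdown and with apilimod by 0.58 and 0.46 (limma adjusted p = 5.55e-08 and 0.000279), and was lower with Torin-1 by 0.21, a call lost without DMSO replicate 1 or Torin-1 replicate 2 (adjusted p = 0.252 and 0.0558). TOLLIP, a receptor with a ubiquitin-binding domain, rose in the knockdown by 0.58 (limma adjusted p = 1.83e-05) and with apilimod by 0.49 (adjusted p = 0.00577), the latter lost without DMSO replicate 2 (0.111).

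The selective receptors among these genes gave several patterns. CCPG1 and RETREG1, receptors for the endoplasmic reticulum, rose with Torin-1 by 0.62 and 0.82 (limma adjusted p = 6.65e-06 and 0.000398) and passed in neither PIKfyve comparison. The mitochondrial receptor BNIP3 fell in the knockdown and with Torin-1, by 0.78 and 0.74 on the log2 scale (limma adjusted p = 1.36e-06 and 0.000266). Its relative BNIP3L fell by 0.67 in the knockdown and rose by 0.47 with Torin-1 (limma adjusted p = 2.91e-07 and 0.00127). With apilimod BNIP3L passed as higher, against its direction in the knockdown (44.6 and 46.3 CPM with DMSO, 53.4 and 60.8 with apilimod; 0.32, limma adjusted p = 0.0493), and that call was lost without either DMSO replicate or apilimod replicate 2 (0.149 to 0.278). NCOA4, the receptor that carries ferritin into autophagosomes, was at 135.8 and 153.4 CPM with DMSO, 152.6 and 159.6 with apilimod and 161.8 and 183.6 with Torin-1. It passed with Torin-1 (0.25, SE 0.073, limma adjusted p = 0.0139) but not without DMSO replicate 1 or Torin-1 replicate 2 (adjusted p = 0.181 and 0.129), and in the knockdown, at 155.4 and 150.1 against 161.8 and 165.0 CPM, it did not (0.10, limma adjusted p = 0.163). ATG16L2, a relative of ATG16L1, was at 42.9 and 39.6 CPM with sgNC and 19.8 and 16.4 with sgPIKFYVE-1 (−1.15, SE 0.11, limma adjusted p = 1.11e-07).

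Among the lower expressed genes of this set, PLEKHM1, an adaptor of lysosome fusion, was at 4.12 and 4.18 CPM with DMSO, 7.81 and 10.03 with apilimod and 5.92 and 7.14 with Torin-1 (0.94 and 0.54, limma adjusted p = 0.00406 and 0.0294), and both calls could be lost with 1 library left out: the first without apilimod replicate 2 (0.0614) and the second without DMSO replicate 1, DMSO replicate 2 or Torin-1 replicate 2 (0.0882 to 0.163). STBD1, a glycogen receptor, fell in the knockdown by 0.82 (limma adjusted p = 0.0113), lost without sgPIKFYVE-1 replicate 2 (0.101), and 58.1% of its exonic bases are shared with FAM47E-STBD1 on its strand. ATG9B, a relative of ATG9A, was at 2.04 and 1.57 CPM with sgNC and 0.438 and 0.431 with sgPIKFYVE-1 (−0.96, limma adjusted p = 0.0205), lost without sgNC replicate 1, sgPIKFYVE-1 replicate 1 or sgPIKFYVE-1 replicate 2 (0.0535 to 0.126). TMEM41B, a scramblase needed early in autophagosome formation, rose with apilimod by 0.52 (limma adjusted p = 0.00251), and ZFYVE1, a PI3P-binding protein of the omegasome, rose with Torin-1 by 0.56 (adjusted p = 0.0106), which was lost without DMSO replicate 2 or Torin-1 replicate 1 (0.0589 and 0.0714).

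SQSTM1 had the highest fold change of the module against a control, and the genes whose profile was most like it were PLXNA2 (Pearson's r 0.998), TUBB2B (0.991), LRRFIP1 (0.990), KCNA2 (0.989) and KLF4 (0.984), over 10 samples each centred on the mean of its own control. Among the members the highest values were those of ATG4D (0.861) and MAP1LC3B (0.845) and the lowest that of ATG7 (−0.941). These 10 points fall into 5 groups and share libraries, so the correlations are descriptions only. Across the 3 comparisons with a control, 5 members passed in all, ULK1, SQSTM1, NBR1, OPTN and EPG5 (13.2%, against 3.81% of the genes tested in both tables). This count pools directions, since ULK1 and NBR1 were lower in both PIKfyve comparisons and higher with Torin-1. Both drug comparisons share the DMSO samples, and the apilimod calls of ULK1 and NBR1 were not kept in every alternative fit. Another 7 passed in none, ATG101, BECN1, AMBRA1, ATG4C, ATG4D, ATG10 and ATG16L1 (18.4%, against 37.9%).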

How the data were processed

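The authors trimmed reads with Trimmomatic, summed estimated transcript counts to genes and scaled them with edgeR's TMM factors; the quantifier and annotation are not given in the sources used here, and the submitters' processing notes name hg38. Each experiment's table, as deposited, holds a CPM-like signal. The labels describe removal of ribosomal RNA and the methods oligo(dT) selection, and the study's text gives a shorter drug exposure than the labels. Only 65.1% to 68.9% of low values were whole reads within 0.01 of a read, so no count model was fitted.

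Genes whose mean reached 1 CPM entered limma 3.58.1 (R 4.3.3, trended variance) as log2(CPM + 1), with 4 samples in the knockdown fit and 6 in the drug fit, and p-values were adjusted across all of them (Benjamini-Hochberg). The pseudocount understates the change of low genes. The script was tested on simulated data. Values in every sample are given for members past 0.05 and an absolute log2 fold change of 0.5 in a comparison with a control, and for SQSTM1, MAP1LC3B and ULK1; of the further pathway genes NCOA4 and those past both limits are named, and other members by counts with examples per step. Members and lists were chosen with earlier results of these data known. Positions are those of GENCODE 29. The floor of 3 reads covers counting error only, whereas the SE values are those of limma and measure the spread between samples. No replicate pair was closer than sampling noise (median chi-square 1.86 to 2.74 times expectation). Alternatives were a pseudocount of 0.1, no filter, quantile normalization, no variance trend, a replicate block, only the compared groups, and each library left out.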

Additional observations from a re-analysis of the deposited data

How the results depend on the processing

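The called values of the members and the named pathway genes, 103 in all, gave 1155 values under the alternatives, of which 1018 kept their side of the threshold, 137 no longer passed and 0 reversed. Without a variance trend the members lower in the knockdown became 6, those higher and lower with apilimod 5 and 0, those lower with Torin-1 1, and those higher in apilimod against Torin-1 6. Without the filter on low values, where more genes were tested, the lower members became 1 with apilimod and 1 with Torin-1. Quantile normalization gave 1 lower with Torin-1 and 6 higher in apilimod against Torin-1. It also added calls: ATG2B and MAP1LC3B passed as higher with Torin-1 (0.25 and 0.21, limma adjusted p = 0.0449 and 0.0323). For these the cause was not tested. Over the fits that leave out 1 library, with the lone sample of its group assumed to vary like the others, the counts of higher and lower members ran from 6 to 8 and 9 to 12 in the knockdown, from 5 to 8 and 0 to 2 with apilimod, from 15 to 17 and 1 to 3 with Torin-1, and from 7 to 9 and 13 to 14 in apilimod against Torin-1.

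With a replicate block, 103 of 103 calls passed as before, and the counts of higher and lower members were 9 and 11 in the knockdown, 8 and 2 with apilimod, 17 and 3 with Torin-1, and 11 and 14 in the direct comparison. Same-numbered samples deviated together with correlations of 0.037 between sgNC and sgPIKFYVE-1 and 0.043 to 0.104 among the drug groups. These low values cannot show whether the shared numbers pair the samples. Over all genes the block raised the calls with apilimod from 778 higher and 377 lower to 1055 and 701. With Torin-1 they went from 2248 and 2954 to 2546 and 3357, and in the knockdown from 2935 and 2837 to 3102 and 3009. With 2 samples a group small differences are hard to detect, and with apilimod the calls of ULK1, NBR1, ATG2B, ATG9A and GABARAP were lost in some of the fits with 1 library fewer. Their log2 fold changes kept their sign there, from −0.49 to −0.39 for ULK1, 0.34 to 0.38 for ATG2B, 0.19 to 0.22 for GABARAP, −0.38 to −0.23 for NBR1 and 0.24 to 0.39 for ATG9A.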
